A study of Mus musculus with 9 samples.

Results

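Hepcidin and the genes around its control by iron and by bone morphogenetic proteins (BMPs) were followed across liver and angiosarcoma arrays. The 10 genes are Hamp and Hamp2, which encode the 2 mouse hepcidins, the ligands Bmp2 and Bmp6, the iron sensors Tfr2 and Hfe, the BMP-responsive genes Id1 and Smad7, the iron importer Tfrc and the iron exporter Slc40a1. They were taken by symbol from the platform annotation, among 19938 genes measured. Each of the 10 had 1 probe set that named it alone, so the rule to keep the probe set of highest mean left nothing to choose. The genes were listed with earlier results of these arrays in view, and Hamp was chosen by its log2 values in the knockout and wild-type livers, where it spread widely. Its liver values are therefore a description without a test.

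The 9 arrays fall into 3 groups of 3. The AS lines are separately derived angiosarcoma cell lines, grown in long-term culture from hepatic endothelial cells of Notch1 knockout mice that bore a visible tumour. KO livers came from MxCre Notch1 lox/lox mice, in which an interferon-inducible Cre removes the exon for the signal peptide of Notch1, a receptor for signals between neighbouring cells. WT livers came from Notch1 lox/lox mice without Cre. All mice were C57Bl/6, and those of both liver groups were injected at 4 weeks of age, on days 0, 3 and 6, with 300 µg of poly(I:C), which mimics viral RNA and induces interferon, so WT livers had the agent too. MxCre acts in many cell types, and the effect of Cre cannot be told apart from that of the deletion. The labels used here give neither the age at collection nor the sex.

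Hepcidin is a peptide hormone of hepatocytes that binds ferroportin, the product of Slc40a1, and so holds iron inside cells. Sinusoidal endothelial cells secrete BMP2 and BMP6, which act on hepatocyte BMP receptors with the co-receptor hemojuvelin (Hjv) and, through SMAD proteins, switch on Hamp, Id1 and Smad7. HFE and transferrin receptor 2 sense transferrin-bound iron on the hepatocyte, and interleukin-6 raises Hamp through STAT3.

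Both hepcidin genes lie on mouse chromosome 7, and the 250 bases before each gene start are shown because they carry the elements through which BMP and STAT3 signals are known to reach Hamp. They are RefSeq sequence of build GRCm38.p6, minus strand, from chr7:30944030-30944279 for Hamp and chr7:30924182-30924431 for Hamp2. Capitals mark the 6 bases at the place of GGCGCC, the core of the BMP-responsive element, and the match to TTCNNNGAA, the core of the STAT element, downstream of it.
Hamp: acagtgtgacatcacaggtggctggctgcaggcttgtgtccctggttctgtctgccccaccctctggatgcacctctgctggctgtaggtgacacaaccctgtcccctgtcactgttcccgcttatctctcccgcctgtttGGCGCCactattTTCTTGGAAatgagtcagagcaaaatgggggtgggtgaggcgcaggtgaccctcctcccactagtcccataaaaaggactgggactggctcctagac
Hamp2: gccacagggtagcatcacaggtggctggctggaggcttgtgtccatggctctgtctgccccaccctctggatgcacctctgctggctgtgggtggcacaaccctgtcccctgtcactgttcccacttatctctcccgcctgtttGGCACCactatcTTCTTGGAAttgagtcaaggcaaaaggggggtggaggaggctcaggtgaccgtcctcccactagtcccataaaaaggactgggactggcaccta

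The 2 stretches were 91.9% identical over 247 aligned bases, with 20 substitutions. One of them, G145A, lies inside the first capital run (Hamp base first, position from the 5′ end of its printed stretch), so GGCGCC was found before Hamp and not before Hamp2. TTCNNNGAA was found before both, as TTCTTGGAA. GGCGCC begins 109 bases before the Hamp gene start, and 6 bases separate it from the STAT core. Both motifs read the same on either strand and do not overlap here. GGCGCC occurred in 9.59% of 32851 promoter stretches of this length, TTCNNNGAA in 7.02% and both together in 0.368%. Promoters of 6 of the 10 genes were matched, and among Bmp6, Tfr2, Hfe and Tfrc only a Tfrc stretch held GGCGCC and none held TTCNNNGAA. A match is a run of letters and not a shown binding site. Because the 2 genes are so alike, signal of one may reach the probe set of the other, which was not analysed here, and Hamp2 values are uncertain for that reason.

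Values below are on the log2 scale of the deposited array data, where 1 unit is a 2-fold change, and the number of arrays limits their precision. Notch1 served as the check of the labels: it averaged 8.39 ± 0.50 in AS lines, 8.37 ± 0.47 in KO livers and 11.47 ± 0.39 in WT livers (SD, n = 3 each), with all 3 WT livers above every other array. Endothelial markers were bright in all livers, with a 12-gene mean of 12.01 to 12.43 in KO and 11.98 to 12.08 in WT livers. In the lines the same mean was 6.38 to 6.59, and Cdh5, the cadherin of endothelial junctions, was at 5.45 to 5.66. The lines thus lacked the endothelial markers of the cells from which they were labelled as derived. A 23-gene hepatocyte mean ran from 7.41 to 9.35 in the lines, although Alb, the gene for albumin, stayed at 12.31 to 13.67 in them. The array medians over all probe sets were 6.53 to 6.63, and no detection calls exist, so low values may be background.

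Hamp divided the KO livers. Its log2 level was 5.46, 11.87 and 6.70 in KO replicates 1, 2 and 3, against 11.56, 12.07 and 11.96 in WT replicates 1, 2 and 3. KO replicates 1 and 3 were thus far below every WT liver, and KO replicate 2 lay among them. As a share of the WT mean on the linear scale, the Hamp signal was at 1.19%, 101% and 2.80% in the 3 KO livers. In KO replicates 1 and 3 only 25.1% and 45.3% of all genes were at or below it, so these signals may be background, and the shares and ranks describe signal rather than transcript number. Of all 19938 genes, none was further below its WT mean than Hamp in KO replicate 1, and in KO replicate 3 Hamp held rank 3 from the lowest. Its log2 distance from the WT mean was -6.40 and -5.16 in these arrays and 0.01 in KO replicate 2. The SD among KO livers was 3.40 against 0.27 among WT livers, and only 5 of all genes had a larger KO SD. The log2 difference between the KO and WT means was -3.85 (SE 1.66), and -5.78 with KO replicate 2 left out.

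Hamp2 showed the same division with a smaller size. It was at 7.71, 10.66 and 7.52 in KO replicates 1 to 3, against 10.30, 11.16 and 10.92 in WT replicates 1 to 3. KO replicates 1 and 3 stood at 11.8% and 10.3% of the WT mean, and KO replicate 2 at 91.4%. The log2 difference was -2.16 (SE 0.885, 95% interval -4.36 to 0.04) and did not pass the threshold of 0.05 in limma (adjusted p = 0.227 over all genes). With predicted genes left out, Hamp2 held rank 8 in closeness to Hamp over the 6 livers, by a measure described further on. That rank rests on the liver values that chose Hamp and is a description.

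**Figure D1:**
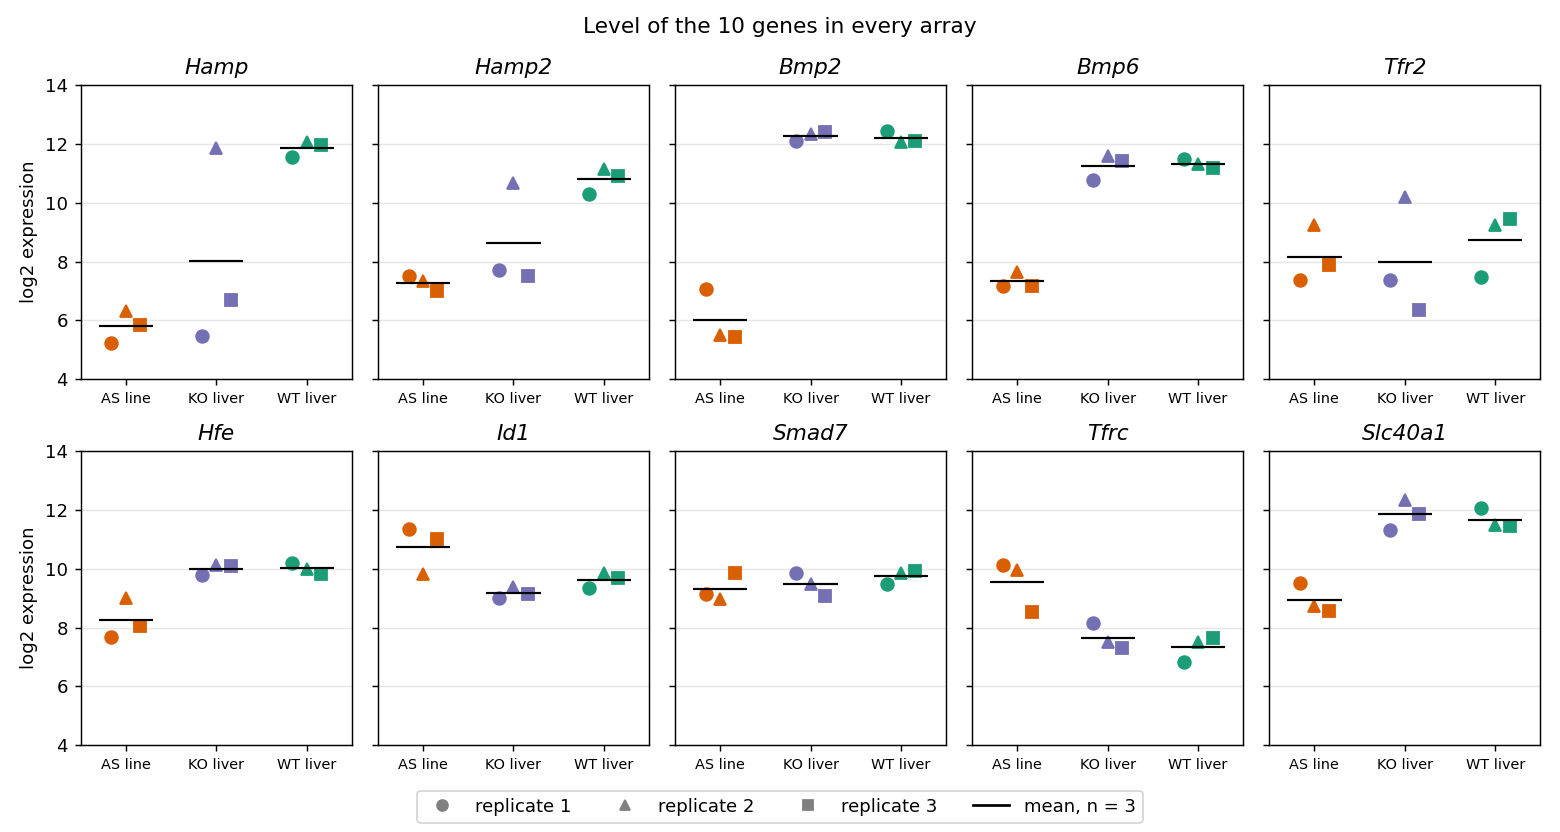
Log2 expression of the 10 genes (y axis) in AS lines, KO livers and WT livers (x axis), 1 point per array with its replicate marked by shape and a line at the group mean. Hamp and Hamp2 are high in KO replicate 2 and low in KO replicates 1 and 3, while Bmp2 and Bmp6 sit together in all 6 livers and low in the lines.

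Hepatocyte markers moved with Hamp, and their values stand beside it here. The mean of 23 hepatocyte genes was 10.17, 12.33 and 8.89 in KO replicates 1 to 3, against 11.08, 12.24 and 12.21 in WT replicates 1 to 3. In bulk RNA, fewer cells of a type and less RNA per cell cannot be told apart. Hamp lay outside the range of these genes in both low livers: in KO replicate 1 the 23 genes lay between -3.09 (Tdo2) and -0.36 (Alb) from their WT means, with Hamp at -6.40. In KO replicate 3 they lay between -3.91 (Cps1) and -1.75 (Alb), with Hamp at -5.16. Hamp was not alone below that range. The 5 genes nearest to Hamp over the livers, named further on, were also below it in both arrays. They were picked by closeness to Hamp in these same livers, so their low values are a description. Cyp2f2 was at -4.71 and -4.79, and Cyp2a12 at -3.38 and -3.97, in KO replicates 1 and 3. The marker mean was lowest in KO replicate 3 and Hamp was lowest in KO replicate 1. The Hamp values of these arrays, 6.70 and 5.46, may both be background, so their order by Hamp is uncertain. In WT replicate 1 the 23 genes had a median of -0.84, and 22 of them were further below the WT mean than Hamp, which was at -0.31. Hamp2 lay inside the marker range in the low livers, with 1 of 23 genes further down in KO replicate 1 and 6 of 23 in KO replicate 3. All 23 hepatocyte genes had negative KO-minus-WT differences (median -1.27, against a median of 0.00 over all genes), and 0 passed the threshold. How much of the Hamp values goes with hepatocyte content was not tested.

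**Figure D2:**
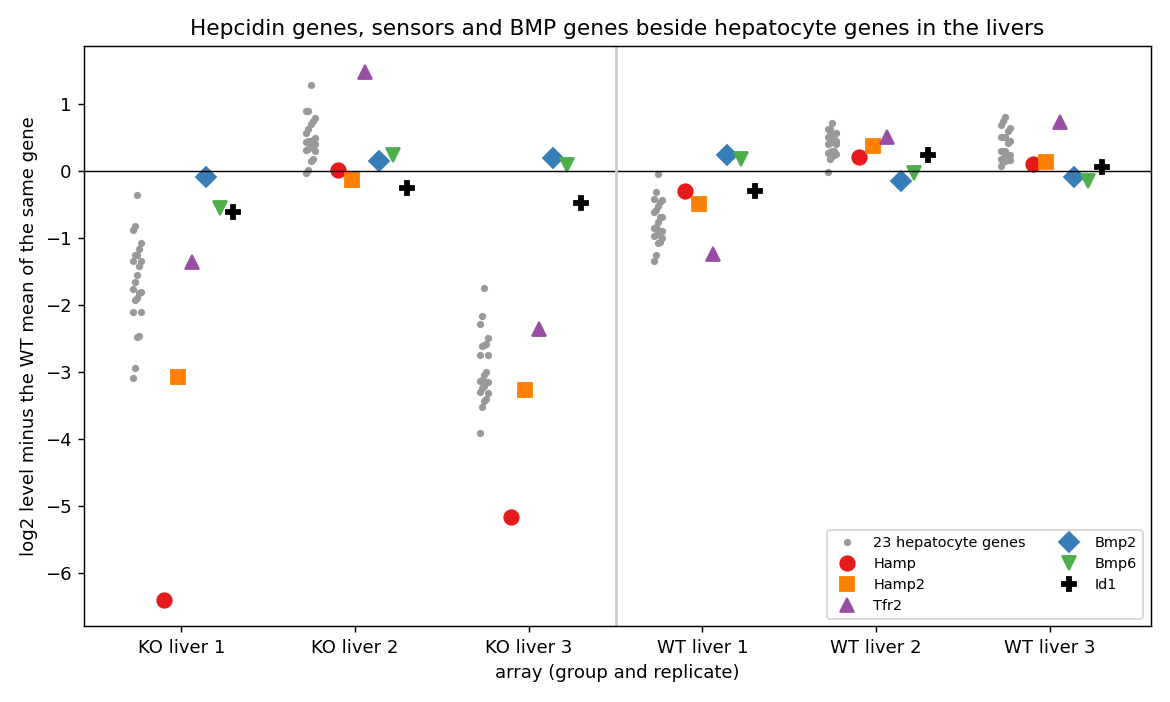
Log2 level minus the WT mean of the same gene (y axis) in each liver array (x axis), with 23 hepatocyte genes as grey dots and 6 genes of the hepcidin axis as coloured symbols. Hamp lies below all 23 hepatocyte genes in KO replicates 1 and 3, at -6.40 and -5.16, while Bmp2 stays within 0.24 of its WT mean in every liver.

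The BMP ligands did not share this division. Bmp2 was at 12.11, 12.34 and 12.39 in KO replicates 1 to 3, against 12.44, 12.05 and 12.11 in WT replicates 1 to 3. The groups overlapped, and the log2 difference of 0.08 (SE 0.137, 95% interval -0.26 to 0.42) did not pass in limma (adjusted p = 0.736). Bmp6, the ligand that liver endothelium raises with iron, was at 10.78, 11.57 and 11.41 in KO replicates 1 to 3, against 11.50, 11.30 and 11.18 in WT replicates 1 to 3. Its difference was -0.08 (SE 0.224, 95% interval -0.63 to 0.48, adjusted p = 0.846). The lowest Bmp6 value and the lowest liver Hamp value were in the same array, KO replicate 1, yet KO replicate 3 held the third highest Bmp6 of the 6 livers with Hamp at 6.70. The 12-gene sinusoidal endothelial mean, which stands for the cells that make these ligands, was 12.58 to 12.82 in KO and 12.53 to 12.68 in WT livers.

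Id1, a helix-loop-helix inhibitor and an immediate target of BMP-SMAD signalling, was at 9.01, 9.38 and 9.15 in KO replicates 1 to 3, against 9.33, 9.86 and 9.69 in WT replicates 1 to 3. The 2 lowest values were those of KO replicates 1 and 3, and KO replicate 2 overlapped WT replicate 1. The log2 difference was -0.44 (SE 0.167, 95% interval -0.86 to -0.03). It did not pass in limma (adjusted p = 0.204), although Id1 was the one gene of the 9 tested with an unadjusted p under 0.05, as 22.5% of all genes had. Smad7, the inhibitory SMAD that feeds back on the pathway, was at 9.86, 9.48 and 9.06 in KO replicates 1 to 3, against 9.49, 9.84 and 9.91 in WT replicates 1 to 3. The groups overlapped (difference -0.28, SE 0.228, adjusted p = 0.480), and the highest KO value of Smad7 was in replicate 1, where Hamp was lowest.

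Relations of Hamp to Bmp2, Bmp6 and Id1 over the 6 livers could not be tested. The largest gap between ordered Hamp values was 4.85 of a range of 6.61 (73.4%), which puts 2 KO livers apart from the other 4, and the largest gaps of Bmp2 and Bmp6 were 58.4% and 51.4% of their ranges. With gaps above 50% no pooled correlation was computed for these 3 pairs, nor for Bmp2 or Bmp6 with Id1, and 3 livers per genotype are too few for one. Set side by side within the KO livers, Hamp and Id1 had the same order of replicates 2, 3 and 1 from high to low. For Bmp6 that order also held, and for Bmp2 it was 3, 2 and 1. Within the WT livers Hamp and Id1 both ran 2, 3 and 1 from high to low, while Bmp6 ran 1, 2 and 3. Orders of 3 arrays are given as a description, and that of KO replicates 1 and 3 by Hamp rests on values that may be background.

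Of the iron sensors, Tfr2 spread more among livers than Hfe, with SDs of 1.99 in KO and 1.08 in WT livers against 0.18 in both for Hfe. Tfr2 was at 7.37, 10.20 and 6.37 in KO replicates 1 to 3, against 7.49, 9.24 and 9.46 in WT replicates 1 to 3. The low arrays were KO replicates 1 and 3 and WT replicate 1, which are also the 3 lowest by the hepatocyte mean. Its difference of -0.75 (SE 1.10, adjusted p = 0.692) did not pass. Hfe was at 9.78, 10.12 and 10.08 in KO replicates 1 to 3, against 9.83 to 10.20 in WT livers (difference -0.01, SE 0.137, 95% interval -0.35 to 0.33, adjusted p = 0.961). WT replicate 1 combined a low Tfr2 value with a Hamp value of 11.56, and the low KO livers had both low.

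Slc40a1, through which iron leaves cells, was at 11.31, 12.34 and 11.87 in KO replicates 1 to 3, against 12.05, 11.49 and 11.44 in WT replicates 1 to 3 (difference 0.18, SE 0.303, adjusted p = 0.725). Kupffer cells, the liver macrophages that recycle red cell iron, express it strongly. Its 2 highest arrays, KO replicate 2 and WT replicate 1, also held the 2 highest means of 12 Kupffer cell genes (11.77 and 11.66, against 11.06 to 11.14 in the other 4 livers); the part of Kupffer cells in its level was not tested. Tfrc, the receptor that takes up transferrin-bound iron in dividing and erythroid cells, was at 8.14, 7.51 and 7.31 in KO replicates 1 to 3, against 6.84, 7.52 and 7.66 in WT replicates 1 to 3. The groups overlapped (difference 0.32, SE 0.305, adjusted p = 0.542). Proliferation genes had a mean of 9.56, 8.11 and 9.13 in KO replicates 1 to 3, and of 7.15 to 7.36 in WT livers, so that KO replicate 1 was highest in both. Erythroid markers averaged 5.64 to 5.78 in KO and 5.72 to 6.46 in WT livers.

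None of the 9 genes other than Hamp, which was not tested here, passed the threshold between KO and WT livers, as did 0.0% of all genes. None had groups free of overlap either, against 19.2% of all genes entirely higher and 11.1% entirely lower in KO livers. Notch1, the deleted gene, also did not pass (adjusted p = 0.0995 in limma), so a gene that did not pass here may still have changed. Without KO replicate 2, Hamp2 alone of the 9 passed as lower, beside 1.39% of all genes lower, 8.38% higher and 9.78% in either direction, and it then had a log2 difference of -3.18 (adjusted p = 0.0171 in limma, and 0.0119 to 0.470 over all settings tried). With limma's array weights, which gave KO replicate 2 and WT replicate 1 the lowest weights (0.315 and 0.274), Hamp2 and Id1 passed as lower, beside 9.22% of all genes lower, 19.6% higher and 28.8% in either direction. Without WT replicate 1 none of the 9 passed, beside 0.301% of all genes (0.276% lower and 0.0251% higher).

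Further genes of the pathway were read from fixed lists, none of whose members passed the threshold between KO and WT livers. Of 12 BMP receptors and co-receptors, 6 had positive and 6 negative differences (median 0.00). Hjv, the hemojuvelin gene, differed most: it was at 7.83, 10.38 and 6.93 in KO replicates 1 to 3, against 7.92, 9.83 and 9.96 in WT replicates 1 to 3 (difference -0.86, SE 1.03, adjusted p = 0.626). It was low in the same 3 arrays as Tfr2. Bmpr1a, a type I BMP receptor, was at 6.73, 8.31 and 7.0 in KO replicates 1 to 3, against 7.66, 8.06 and 7.67 in WT replicates 1 to 3 (difference -0.45, adjusted p = 0.537). Its 2 lowest livers were those with the lowest Hamp.

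Of 7 measured other ligands of the family, 6 had negative differences (median -0.17, but 0.02 with 3 negative without KO replicate 1 or without WT replicate 2). The list was led by Inhbb, an activin subunit, at -1.01 (SE 0.321, adjusted p = 0.161), and Bmp10 at -0.47 (adjusted p = 0.376). All Inhbb values of KO livers (8.83 to 9.45) lay below those of WT livers (9.47 to 10.56), beside 11.1% of all genes entirely lower. Of 4 SMAD mediators, 3 were positive (median 0.22), with Smad5 at 0.75 (SE 0.211, adjusted p = 0.138) and Smad1 at 0.23 (adjusted p = 0.264). Both transduce BMP signals, and neither had overlapping groups, beside 19.2% of all genes entirely higher in KO livers. The 5 other BMP-SMAD target genes had a median of -0.01, with Id2 at -0.30 (adjusted p = 0.348) and Atoh8 at -0.29 (adjusted p = 0.472). Among 15 antagonists and suppressors of hepcidin the median was -0.09. Tmprss6, the protease that cleaves hemojuvelin, was at 8.26, 10.74 and 7.71 in KO replicates 1 to 3, against 8.37, 10.24 and 9.99 in WT replicates 1 to 3 (difference -0.63, adjusted p = 0.692). Bmper, a secreted BMP modulator, differed by -0.54 (adjusted p = 0.313).

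On the interleukin-6 and STAT3 route, 17 of 19 genes had negative differences, with a median of -0.35. The median was -1.18 without KO replicate 2, and -0.09 with 11 of 19 negative without KO replicate 3. The list mean was 8.74, 10.93 and 8.26 in KO replicates 1 to 3, against 9.30, 9.89 and 10.40 in WT replicates 1 to 3, so KO replicate 2 was the highest liver and KO replicates 1 and 3 the lowest. Many of its members are acute phase proteins made by hepatocytes. Orm1, an acute phase glycoprotein, differed by -1.58 (SE 1.08, adjusted p = 0.411), and Lcn2, a siderophore-binding protein, by -1.48 (SE 1.37, adjusted p = 0.529). Saa2, a serum amyloid gene, was at 5.16, 11.85 and 6.37 in KO replicates 1 to 3, against 6.82, 8.88 and 11.30 in WT replicates 1 to 3. WT replicate 1 had a low Saa2 value and a high Hamp value, unlike the low KO livers. Il6 itself was highest in that array, at 10.98, against 6.44 to 9.37 in the other 5 livers.

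Of 22 measured genes for iron uptake, storage and export, 15 had negative differences (median -0.08). Cp, the ferroxidase ceruloplasmin, differed by -1.14 (SE 0.745, adjusted p = 0.395), and Hpx, the haem carrier hemopexin, by -1.08 (SE 0.838, adjusted p = 0.463). Both were lowest in KO replicate 3, at 8.88 and 10.05. The 6 iron-regulatory proteins had a median of 0.24, with Pcbp3 at 0.51 (adjusted p = 0.248) and Aco1, iron-regulatory protein 1, at -0.33 (adjusted p = 0.591). Proliferation genes were positive in 11 of 11 with a median of 1.78, and 0 passed, although 11 passed as higher without KO replicate 2, beside 8.38% of all genes. Each KO liver exceeded every WT liver for all 11, beside 19.2% of all genes, including the cyclin Ccna2 (2.06, adjusted p = 0.104) and the kinase Plk1 (2.03, adjusted p = 0.102).

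The genes nearest to Hamp were found by the root mean square difference of log2 values after the WT mean of each gene was subtracted. Over the 9 arrays these were Cyp2f2 at 0.81 log2 units, Hsd17b6 at 1.19, Tdo2 at 1.31, Tat at 1.37 and Cyp2b13 at 1.39. Over the 6 livers they were Cyp2f2 at 0.88, Cyp2b13 at 1.07, Hsd17b6 at 1.2, Hal at 1.32 and Cyp2a12 at 1.37. Cyp2f2, a cytochrome P450, was at 7.06, 10.55 and 6.99 in KO replicates 1 to 3, against 11.29, 11.86 and 12.17 in WT replicates 1 to 3. It differed from Hamp in KO replicate 2, where its difference from the WT mean was -1.23. Of the other genes of the axis, Tfr2 ranked 379th over the livers, Id1 1294th, Bmp6 2913th and Bmp2 10617th. Nearest to Id1 over the 6 livers were Nol10 at 0.04, Cd82 at 0.06, and CK137956, Klri1 and Eva1c at 0.07 each. Likeness over 6 or 9 arrays that share the hepatocyte difference is a description.

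**Figure D3:**
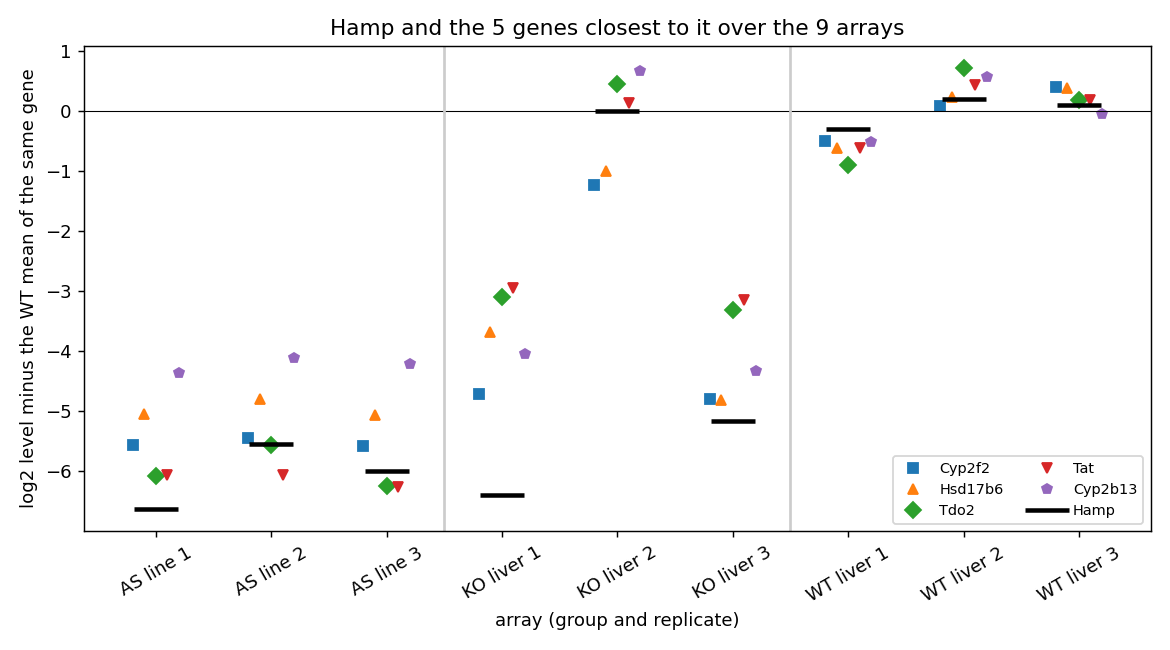
Log2 level minus the WT mean of the same gene (y axis) for Hamp, drawn as bars, and the 5 genes nearest to it, over the 9 arrays (x axis). Hamp at -6.40 in KO replicate 1 lies below all 5, and Cyp2f2 departs from it most in KO replicates 1 and 2.

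In the AS lines the ligands and the exporter were low and the importer was high. Bmp2 was at 7.08, 5.51 and 5.45 in AS lines 1 to 3, against 12.11 to 12.39 in KO livers. It fell by 6.27 on the log2 scale (SE 0.468, limma adjusted p = 0.000962), and relative to WT livers it fell by 6.19 (SE 0.463, adjusted p = 0.000527). Bmp6 was at 7.16, 7.65 and 7.18 in the lines, against 10.78 to 11.57 in KO livers, and fell by 3.92 relative to KO livers (SE 0.256, adjusted p = 0.000627) and by 4.00 relative to WT livers (SE 0.171, adjusted p = 7.40e-05). For both ligands every line lay below every liver. Of all genes, 16.7% lay entirely lower and 24.1% entirely higher in the lines than in KO livers. Against WT livers these shares were 19.5% and 28.3%. They are also the background for the separation of Slc40a1, Tfrc, Hfe and Id1 below. Sinusoidal endothelial markers were low as well, with 12 of 12 past the threshold as lower against either liver group and a mean of 6.41 to 6.59 in the lines. Of all genes, 10.1% passed as lower against KO livers and 11.1% against WT livers. The part of these endothelial markers in the ligand values was not tested.

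Slc40a1 was at 9.52, 8.74 and 8.55 in AS lines 1 to 3, below all livers, and fell by 2.91 relative to KO livers (SE 0.366, adjusted p = 0.00529) and fell by 2.73 relative to WT livers (SE 0.306, adjusted p = 0.00219). Kupffer cell genes, with a mean of 5.97 to 6.24 in the lines, passed as lower in 12 of 12 against either liver group. The shares of all genes were 10.1% lower against KO livers and 11.1% lower against WT livers. Tfrc was at 10.11, 9.97 and 8.53 in the lines, above every liver, and rose by 1.88 relative to KO livers (SE 0.490, adjusted p = 0.0492) and by 2.20 relative to WT livers (SE 0.480, adjusted p = 0.0211). The proliferation mean was 10.93, 7.30 and 8.78 in AS lines 1 to 3. AS line 1 was highest for both, and AS line 2, lowest by that mean, held the second highest Tfrc value. Against WT livers the 11 proliferation genes were all positive (median 1.76), with 0 past the threshold, beside 17.6% of all genes higher. Without AS line 2, 5 passed as higher, beside 16.5% of all genes. Against KO livers 6 were positive (median 0.12) and 0 passed, beside 11.4% of all genes higher. The part of proliferation in the Tfrc values was not tested. The Tfrc call was lost without any 1 of the KO livers (adjusted p from 0.0907 to 0.154) or WT livers (0.0566 to 0.0738). It was also lost in both comparisons without AS line 1 or AS line 2 (0.0543 to 0.126). With all arrays kept, it was lost against KO livers with array weights. Against WT livers it was lost with the replicate number as a block.

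In the lines both hepcidin genes were near their levels in KO replicates 1 and 3. Hamp was at 5.23, 6.31 and 5.86 in AS lines 1 to 3, with 22.0%, 39.8% and 31.3% of all genes at or below it in those arrays, against 97.6% to 98.7% in WT livers. Its mean in the lines lay 6.06 below that of WT livers (SE 0.300). Relative to KO livers the difference was -2.21 (SE 1.71), with KO replicates 1 and 3 at 5.46 and 6.70. Both differences use the liver values by which Hamp was chosen, so they are descriptions without a test. Hamp2 was at 7.50, 7.34 and 7.01 in the lines and fell by 3.51 relative to WT livers (SE 0.256, adjusted p = 0.000489). Its difference from KO livers was -1.35 (SE 0.886, adjusted p = 0.360), with AS line 1 at 7.50 just below KO replicate 3 at 7.52.

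Among the sensors, Hfe was at 7.67, 9.0 and 8.05 in AS lines 1 to 3, below all livers, and fell by 1.75 relative to KO livers (SE 0.359, adjusted p = 0.0240) and by 1.77 relative to WT livers (SE 0.352, adjusted p = 0.0155). The first of these calls was lost without any 1 of the KO livers or without AS line 3 (adjusted p from 0.0714 to 0.0888), and the second without WT replicate 1 or 2 or AS line 3 (adjusted p from 0.0505 to 0.0603). Tfr2 was at 7.36, 9.23 and 7.87 in the lines and overlapped both liver groups (difference 0.17, SE 1.10, adjusted p = 0.937 from KO livers, and -0.58, SE 0.704, adjusted p = 0.591 from WT livers). AS line 2, highest for Tfr2, was also highest by the hepatocyte mean, at 9.35 against 7.51 and 7.41 in AS lines 1 and 3.

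Neither BMP-responsive gene passed in the lines with all arrays in the pairwise fit. Id1 was at 11.35, 9.81 and 10.99 in AS lines 1 to 3, above every KO liver (9.01 to 9.38), and AS line 2 overlapped the WT livers. Its differences of 1.53 from KO livers (SE 0.416, 95% interval 0.49 to 2.58, adjusted p = 0.0548) and of 1.09 from WT livers (SE 0.417, adjusted p = 0.110) did not pass. Without AS line 2 they were 1.99 and 1.54, and both passed (adjusted p = 0.00503 and 0.00800). With every line kept, the difference from KO livers also passed in the joint fit of all arrays (adjusted p = 0.0169), with an intensity trend (0.0421), without dim genes (0.0239), under 75th percentile scaling (0.0461) and with array weights (0.0267). Smad7 was at 9.14, 8.96 and 9.84 in the lines and overlapped the livers (difference -0.16, SE 0.309, adjusted p = 0.778 from KO livers, and -0.44, SE 0.259, adjusted p = 0.274 from WT livers). Without AS line 3 the difference from WT livers was -0.70 and passed (adjusted p = 0.0419).

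**Figure D4:**
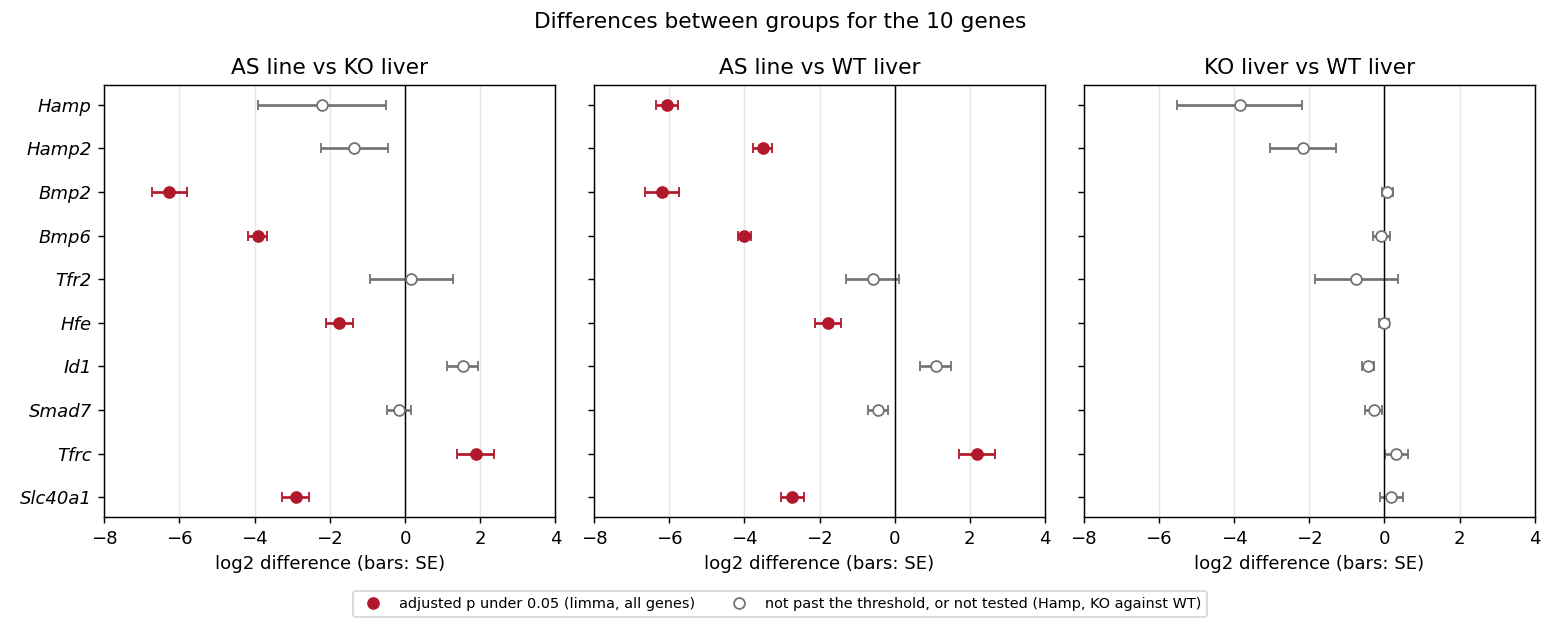
Log2 difference (x axis) with its standard error for the 10 genes (y axis) in 3 comparisons of 3 arrays each, filled where the adjusted p was under 0.05. Against WT livers, Hamp, Bmp2 and Bmp6 lie at -6.06, -6.19 and -4.00 in AS lines, while in KO livers Bmp2 and Bmp6 lie at 0.08 and -0.08. The Hamp differences use the liver values that chose it and are a description, also where filled.

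Against KO livers 5 of the 10 genes passed, 4 lower and 1 higher, beside 21.4% of all genes (10.1% lower and 11.4% higher). Against WT livers 7 passed, 6 lower and 1 higher, beside 28.7% of all genes (11.1% lower and 17.6% higher). Hamp is among the 6 lower, but its liver values chose it, so it is counted there as a description. The comparisons share the lines, so they are not independent. By level, Hamp was ordered AS line, KO liver and WT liver from low to high, with group means of 5.80, 8.01 and 11.86, where the spread of KO livers spans the gap to both neighbours. Means of Bmp2 were 6.01 in AS lines, 12.28 in KO livers and 12.20 in WT livers, and those of Bmp6 were 7.33, 11.25 and 11.33 in the same groups; the 2 liver groups did not differ beyond their spread for either.

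Other BMP genes in the lines went in both directions. Against KO livers 11.4% of all genes passed as higher and 10.1% as lower, and against WT livers 17.6% and 11.1%, which is the background for each list count that follows. Of 7 other ligands, 4 were lower and 2 higher against either liver group, with 2 lower against KO livers without any 1 of them or without AS line 3 (median -0.67 against KO and -1.14 against WT livers, beside 0.05 and 0.02 over all genes). Bmp7 rose by 3.17 (SE 0.339, adjusted p = 0.00320) and Bmp4 by 1.63 (SE 0.257, adjusted p = 0.0108) relative to KO livers. Bmp7 was at 9.32 to 10.52 in the lines, against 6.42 to 6.76 in KO livers and 6.88 to 7.11 in WT livers. Bmp5 fell by 2.73 (SE 0.321, adjusted p = 0.00430) and Gdf2, which encodes BMP9, by 2.46 (SE 0.186, adjusted p = 0.00100) relative to KO livers. Relative to WT livers the largest falls among these ligands were those of Inhbb, which fell by 3.10 (adjusted p = 0.00583), and Bmp5, which fell by 2.90 (adjusted p = 0.00238). The type I receptor Bmpr1a rose by 2.74 (SE 0.435, adjusted p = 0.0109) and Neo1, which encodes neogenin, a partner of hemojuvelin, by 2.55 (SE 0.305, adjusted p = 0.00449) relative to KO livers. Of 12 receptors and co-receptors, 2 were higher and 4 lower against KO livers, and 2 higher and 5 lower against WT livers (3 lower without WT replicate 2 or 3). Eng, the endothelial co-receptor endoglin, fell by 6.51 (adjusted p = 0.000114), and the type II receptor Bmpr2 by 1.36 (adjusted p = 0.00576) relative to KO livers. Hjv fell by 2.78 relative to WT livers (SE 0.566, adjusted p = 0.0169), a call lost in 2 of the 6 fits that left out 1 array.

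Downstream, 1 of 4 SMAD mediators was lower against KO livers (Smad1, -0.79, adjusted p = 0.0322) and 1 higher against WT livers (Smad5, 0.32, adjusted p = 0.0499). These calls were lost in 5 and in 6 of the 6 fits that left out 1 array. Of 5 other target genes, Id4 fell by 3.08 relative to KO livers (adjusted p = 0.000185) and fell by 2.83 relative to WT livers (adjusted p = 0.000113), and Smad6 fell by 1.01 relative to WT livers (adjusted p = 0.0456). Both Id4 calls held in all 6 such fits, and that of Smad6 was lost in 4. Among 15 antagonists and suppressors, 2 were higher and 1 lower against KO livers, and 2 higher and 3 lower against WT livers. Fstl3, a follistatin-like activin antagonist, rose by 1.82 (adjusted p = 0.0263) and Twsg1, a BMP-binding protein, by 1.14 (adjusted p = 0.0166) relative to KO livers, while the ubiquitin ligase Smurf2 fell by 0.86 (adjusted p = 0.0130). Tmprss6 fell by 1.84 relative to WT livers (adjusted p = 0.0474). With 1 array left out, the call was lost in 5 of 6 fits for Fstl3 and Tmprss6, in 3 for Twsg1 and in 2 for Smurf2. The list then had 0 to 4 higher and 0 to 1 lower genes against KO livers, and 1 to 3 higher and 0 to 2 lower against WT livers.

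Of 19 genes on the interleukin-6 and STAT3 route, 1 was higher and 6 lower against KO livers, and 1 higher and 11 lower against WT livers (medians -1.60 and -1.67). Il6 fell by 3.46 (SE 0.684, adjusted p = 0.0215) and Socs3, the feedback inhibitor of STAT3 signalling, fell by 3.26 (SE 0.194, adjusted p = 0.000458) relative to KO livers. Il22ra1, a receptor chain for interleukin-22, rose by 2.70 (adjusted p = 0.0109). The fibrinogen gene Fgg fell by 5.45 (adjusted p = 0.0227) and Saa2 fell by 3.93 (adjusted p = 0.0448) relative to WT livers. With 1 array left out, the calls of Il6 and Saa2 were lost in 4 of 6 fits and that of Fgg in 5, those of Socs3 and Il22ra1 in 0, and the lower counts of the list ran from 3 to 7 against KO and from 6 to 11 against WT livers. In the iron handling list, 0 were higher and 5 lower of 22 against KO livers, and 1 higher and 5 lower against WT livers. The metalloreductase Steap4 fell by 2.54 (adjusted p = 0.0170) and the haem oxygenase Hmox1 by 2.52 (adjusted p = 0.00253) relative to KO livers, and Cp rose by 1.34 relative to WT livers (adjusted p = 0.0231). The call of Cp was lost in 5 of 6 fits with 1 array left out, that of Steap4 in 1 and that of Hmox1 in 0. Without KO replicate 2 the list had 4 higher genes against KO livers, and without KO replicate 3 it had 3 lower. Of 6 iron-regulatory proteins, 1 was higher against KO livers and 2 against WT livers. Fbxl5, the iron-sensing subunit of a ubiquitin ligase, rose by 1.35 (adjusted p = 0.00193) and by 1.53 (adjusted p = 0.00189), and Pcbp3 by 1.03 relative to WT livers (adjusted p = 0.0187, lost without WT replicate 1 or 3).

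Markers of other cells that the samples could hold were counted as well. The mean of 12 stellate cell genes was 8.68 to 9.34 in KO and 8.94 to 9.55 in WT livers, that of 7 cholangiocyte genes 6.01 to 6.07 in KO and 6.62 to 6.98 in WT livers, and that of 9 T and NK cell genes 6.93 to 7.17 in KO and 7.06 to 8.93 in WT livers. Between KO and WT livers 0 genes of these lists passed. In the lines, 4 of 7 cholangiocyte genes were higher against KO livers, and 8 of 12 stellate cell genes, 7 of 9 T and NK cell genes, 5 of 23 hepatocyte genes, 12 of 12 endothelial genes and 1 of 6 erythroid genes were lower. Against WT livers 4 cholangiocyte genes were higher and 1 lower, and 8 stellate cell, 4 T and NK cell, 14 hepatocyte, 12 endothelial and 0 erythroid genes were lower. The background is again 11.4% higher and 10.1% lower against KO livers, and 17.6% and 11.1% against WT livers. With 1 array left out, the lower counts against KO livers ran from 2 to 7 for hepatocyte and from 4 to 7 for T and NK cell genes, and against WT livers from 10 to 19 and from 3 to 9. Erythroid genes had 0 to 1 and 0 to 2, and the 1 lower cholangiocyte call was lost without any 1 WT liver.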

How the data were processed

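RNA of 3 AS lines, 3 KO livers and 3 WT livers was labelled for whole-transcript arrays, per the labels' protocols. Their extraction step names PHH, an unexplained abbreviation, so whether whole liver was extracted is not settled. The log2 values of 35556 probe sets were deposited by the authors, whose processing notes name RMA and oligo without versions. RMA as commonly run equalises array distributions, and a shift of most genes would then be hidden.

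Probe sets with 1 gene symbol (21789) were named from the platform annotation, and the one of highest mean was kept for each of 19938 genes. limma 3.58.1 in R 4.3.3 compared the groups by pairs, 6 arrays a fit, with no covariate, and p-values were adjusted by Benjamini-Hochberg across the 19938 genes at a threshold of 0.05. Hamp was left out of the counts between KO and WT livers. It stayed in the counts of AS lines against livers, where its place is a description because its liver values chose it. The series' design text calls the livers separate animals and the lines independent. The procedure was tested on simulated data, drawn for each gene independently. Of 100 genes changed by 1 log2 unit it recovered 64 (KO against WT livers), 44 (AS lines against KO livers) and 46 (AS lines against WT livers). Of 100 changed by 2 units it recovered 86, 70 and 77 in the same order, so real changes can fail to pass. These draws leave out differences that genes share across arrays, such as that of the hepatocyte markers, so recovery in the data may be lower. Other settings tried were array weights, the replicate number as a block, a joint fit of the 9 arrays, a robust trend with intensity, a filter on dim genes, other scalings, probe set means and leaving out each array. Promoters were aligned with Biopython 1.88.

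The 10 genes, the 8 cell type lists and the 9 pathway lists (209 entries, 15 not measured) were chosen with earlier results of these data known. Genes named from pathway lists are the 2 of largest difference between KO and WT livers and, for the lines, the 2 largest rises and falls past the threshold; the likeness rule left out predicted genes. Saa2 and Il6 in single livers, and the single-array levels of Bmp7 and Inhbb, were described after their values were seen.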

Additional observations from a re-analysis of the deposited data

How the results depend on the processing

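Of the 9 genes tested between KO and WT livers, 0 passed, and 2 did with array weights, beside 0.0% and 28.8% of all genes. Leaving out 1 array gave from 0 to 1 there, beside 0.0% to 9.78% of all genes. Of all 10 genes it gave from 3 to 5 between AS lines and KO livers (5 with all arrays), beside 11.4% to 20.3% of all genes (21.4%). Between AS lines and WT livers it gave from 5 to 7 (7 with all arrays), beside 17.0% to 27.3% of all genes (28.7%). With the replicate block the counts were 0, 5 and 6, beside 0.0%, 17.2% and 22.5% of all genes. Tfrc was then lost between AS lines and WT livers (adjusted p = 0.0574). Counts of the lines against WT livers include Hamp as a description, because its liver values chose it. Same-numbered arrays of KO and WT livers had correlations of deviations of 0.312, 0.430 and -0.393. With 3 arrays a group, whose deviations depend on each other, these values do not settle whether the numbers pair the arrays. The Hamp difference between KO and WT livers ranged from -5.78 to -2.57 with 1 array left out and from -5.47 to -3.83 under the other settings. Under 75th percentile scaling the all-gene median between KO and WT livers was -0.18, and Bmp2 was at -0.10. With 1 array left out, small differences changed sign between KO and WT livers: Bmp6 ranged from -0.23 to 0.16, Tfr2 from -1.86 to 0.06, Hfe from -0.10 to 0.09 and Slc40a1 from -0.07 to 0.45. Between AS lines and KO livers Tfr2 ranged from -0.63 to 1.28 and Smad7 from -0.42 to 0.04. The cause of these changes was not tested. Of the values for single genes, 363 kept their direction and side of the threshold, 19 lost it, 11 gained it and 12 changed sign. Signal near or below the array median limits what Hamp, Hamp2, Bmp2 and Bmp6 show in the lines and what Hamp and Hamp2 show in KO replicates 1 and 3. No correlation over the livers was computed, so its other settings were not run.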
